A study of Mus musculus with 8 samples.

Results

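Transcripts of glycolytic enzymes were followed in single cells from 4T1 mouse mammary tumours, across cell types and across 4 ways of dissociating the tissue. The genes were taken by symbol and are hexokinase 2 (Hk2), glucose-6-phosphate isomerase (Gpi1), aldolase A (Aldoa), triosephosphate isomerase (Tpi1), glyceraldehyde-3-phosphate dehydrogenase (Gapdh), phosphoglycerate kinase (Pgk1), phosphoglycerate mutase (Pgam1), enolase (Eno1), pyruvate kinase (Pkm) and lactate dehydrogenase A (Ldha). All 10 genes were found among the 17580 genes of the library tables, and 8 of the 10 among the 6933 genes of the authors' expression table, which lacks Pgk1 and Pgam1. Tumours grew for 10 days in Balb/c mice after subcutaneous injection of 4T1 cells, a mammary carcinoma line that arose in this strain, so tumour and host share a genetic background. Pieces from different mice, 6 for each condition, were pooled and digested for 1 h with a protease of Bacillus licheniformis. The 4 groups were 37C with no inhibitor, 37C with inhibitor, 4C with no inhibitor and 4C with inhibitor, and the inhibitor was actinomycin D, a blocker of transcription, at 2 nM. Each group was 1 suspension divided into the technical aliquots A and B, which gave 8 libraries. The p-values below therefore measure only the spread between aliquots of a suspension, not between mice. Tubes at 37C ran on an instrument with heaters and tubes at 4C on another without them, so temperature and instrument cannot be told apart. The labels used here give neither age nor sex of the mice.

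Glycolysis converts glucose to pyruvate in the cytosol and yields ATP without oxygen. Hexokinase traps glucose as its phosphate, aldolase splits the phosphorylated sugar, and the later enzymes recover ATP and reduce NAD. Pyruvate kinase makes pyruvate, and lactate dehydrogenase A turns pyruvate into lactate, which restores NAD. Many of these genes are targets of the hypoxia-inducible factor HIF-1, and tumour cells, activated T cells and inflammatory macrophages are known for high glycolytic flux.

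In the GENCODE vM21 annotation of GRCm38 every one of the 10 is a protein-coding gene. Hk2 lies at chr6:82725025-82774454, Gpi1 at chr7:34201330-34230336, Aldoa at chr7:126795234-126800751, Tpi1 at chr6:124810586-124814296 and Gapdh at chr6:125161715-125166467, all on the minus strand. Pgk1 lies at chrX:106187100-106203699, Pgam1 at chr19:41911923-41918660, Eno1 at chr4:150236721-150248879, Pkm at chr9:59656368-59679375 and Ldha at chr7:46841475-46855627, all on the plus strand. Values are unique molecular identifiers (UMIs), that is distinct captured RNA molecules counted at the 3' end, summed over the cells of a library and given per 1000000 UMIs of those cells (CPM). They are not divided by transcript length, and they do not separate splice forms such as those of Pkm.

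The 654 cells that the authors annotated held 2768 UMIs of Aldoa, 2587 of Ldha, 1854 of Pkm, 708 of Tpi1, 670 of Gpi1, 101 of Eno1, 81 of Hk2, 47 of Gapdh, 9 of Pgk1 and 5 of Pgam1. The first 5 genes carry nearly all of the information, and the last 3 were too thinly counted for a test. Gapdh, Pgk1 and Eno1 have near-identical copies, counted here as other genes whose transcripts match at 95% or more over at least 200 bases. Gapdh has 77 such genes, 75 of them pseudogenes. The 35 of them in the tables held 134 UMIs, 103 of these in Gm3272 alone, against 47 in Gapdh. The copy Pgk1-rs7 held 25 UMIs against 9 in Pgk1, and Eno1b held 19 against 101 in Eno1. The levels of Gapdh, Pgk1 and Eno1 are uncertain for that reason. Aldoa and Hk2 had no such copy, and the copies of Gpi1, Tpi1, Pgam1, Pkm and Ldha held at most 1 UMI. The labels do not say how reads that match more than 1 gene were counted. A low count in a copy therefore does not settle the level of the gene itself. Tpi1 overlaps Spsb2, which held 42 UMIs. Nothing in the labels says whether counting used the strand, so reads of such neighbours could be mixed.

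The 3 genes on which the comparisons below turn are Tpi1, Pkm and Ldha, and the 250 bases before a RefSeq start of each are shown on the gene's strand because all 3 are studied as HIF-1 targets. Capitals mark the letters ACGTG on either strand (CACGT is the same motif on the other strand, and the 2 overlap in CACGTG), the core that HIF-1 binds in many promoters.
Tpi1, GRCm38.p6, chr6:124814159-124814408, minus strand: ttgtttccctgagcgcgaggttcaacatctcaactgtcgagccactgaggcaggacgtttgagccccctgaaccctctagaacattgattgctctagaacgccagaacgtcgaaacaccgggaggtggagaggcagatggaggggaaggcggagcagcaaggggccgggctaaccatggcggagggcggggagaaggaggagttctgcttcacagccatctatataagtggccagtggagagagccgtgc
Pkm, first start, GRCm38.p6, chr9:59656326-59656575, plus strand: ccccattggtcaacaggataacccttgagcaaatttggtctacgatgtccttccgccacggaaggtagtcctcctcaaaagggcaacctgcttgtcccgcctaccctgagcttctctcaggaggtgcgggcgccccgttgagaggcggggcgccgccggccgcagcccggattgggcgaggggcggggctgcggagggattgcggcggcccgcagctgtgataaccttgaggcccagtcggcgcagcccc
Ldha, first start, GRCm38.p6, chr7:46845554-46845803, plus strand: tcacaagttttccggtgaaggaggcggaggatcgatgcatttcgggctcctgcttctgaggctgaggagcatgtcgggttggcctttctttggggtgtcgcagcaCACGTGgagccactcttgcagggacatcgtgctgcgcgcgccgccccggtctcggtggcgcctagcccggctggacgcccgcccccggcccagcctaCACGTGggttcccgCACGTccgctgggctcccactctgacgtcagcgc

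The Ldha window held 2 matches of ACGTG and 3 of CACGT, and the Tpi1 window and the first Pkm window held none of these letters. A second Pkm start had 1 match. Among the 10 genes, 6 had a match in at least 1 of their 16 windows (Ldha, Pkm, Hk2, Aldoa, Pgam1 and Pgk1), beside 18.5% of the 27025 genes in the RefSeq promoter table. Genes differ in their number of windows. Counted by window, 7 of the 16 held a match, beside 16.6% of the 32851 promoters. A match is a string of letters and not a measured binding site.

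A library at 37C held 99 to 115 annotated cells and 158314 to 199929 of their UMIs. A library at 4C held only 34 to 74 such cells and 23212 to 65149 UMIs, so values at 4C rest on fewer molecules. Of the 654 cells, 325 were named tumour cells by the authors, 154 T cells, 109 macrophages and 66 NK cells, and the last 3 types are called immune cells here. Each type carried its own markers. Epithelial markers took 0.161% of the UMIs of tumour cells, from Krt7, Krt8, Krt18, Krt19 and Cldn4, with Krt14, Epcam, Cdh1 and Cldn7 at 0 counts, and 0.00622% in immune cells. T cell markers took 1.08% in T cells, macrophage markers 2.60% in macrophages and NK cell markers 1.77% in NK cells. NK cell markers also took 0.240% in T cells, and T cell markers 0.442% in NK cells. For types that the authors did not name, the highest share was 0.133% for neutrophil markers in macrophages (4.35% in 1 library at 4C), 0.0172% for fibroblast markers in tumour cells, 0.0148% for B cell markers in T cells, 0.0128% for endothelial markers in macrophages and 0.00386% for skeletal muscle markers in NK cells. Erythroid markers had 0 counts in every annotated type. Macrophages gave 38.0 to 75.9% of the immune UMIs at 37C and 6.86 to 25.9% at 4C, so the immune sums of both temperatures mix the types differently. Of the annotated barcodes, 1 occurred in 2 libraries. In these sums, fewer cells that carry a transcript and less of it per cell cannot be told apart.

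Aldolase A, which splits fructose bisphosphate, ranged from 2352 to 3444 CPM over the 8 libraries. It read 3038 and 3026 CPM in aliquots A and B at 37C with no inhibitor and 2941 and 3444 CPM at 37C with inhibitor. At 4C it read 2352 and 3039 CPM with no inhibitor and 2757 and 3180.0 CPM with inhibitor. The lowest value was in aliquot A at 4C with no inhibitor, and the temperatures overlapped.

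Triosephosphate isomerase, which interconverts both products of aldolase, stood apart between temperatures. Tpi1 read 771 and 644 CPM at 37C with no inhibitor and 1090.4 and 884 CPM at 37C with inhibitor. It read 607 and 414 CPM at 4C with no inhibitor and 215 and 564 CPM at 4C with inhibitor. All 4 libraries at 37C lay above all 4 at 4C, and the lowest value, in aliquot A at 4C with inhibitor, came from 5 UMIs.

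Lactate dehydrogenase A gave 3101 and 2309 CPM at 37C with no inhibitor and 3281 and 3321 CPM at 37C with inhibitor. Ldha read 2541 and 2134 CPM at 4C with no inhibitor and 2283 and 1894 CPM at 4C with inhibitor. Aliquot B at 37C with no inhibitor lay within the range of 4C, and the other 3 at 37C above it. Pyruvate kinase gave 2198 and 1962 CPM at 37C with no inhibitor, 2316 and 2023 CPM at 37C with inhibitor, 1726 and 1397 CPM at 4C with no inhibitor, and 2542 and 1872 CPM at 4C with inhibitor. The highest Pkm value was thus at 4C, in the library with the fewest UMIs.

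Gpi1, which turns glucose 6-phosphate into fructose 6-phosphate, ranged from 602 to 872 CPM at 37C and from 541 to 872 CPM at 4C, with full overlap. Hk2, the inducible hexokinase, ranged from 71.5 to 130.0 CPM at 37C and reached 133 CPM at 4C. Aliquot B at 4C with inhibitor had 0 Hk2 UMIs, which allows up to 67.7 CPM (3 counts of its total). Eno1 was at 101 and 85.1 CPM at 37C with no inhibitor, 140.1 and 138 CPM at 37C with inhibitor, 133 and 107 CPM at 4C with no inhibitor, and 43.1 and 22.6 CPM, 1 UMI each, at 4C with inhibitor. Gapdh had 42 UMIs at 37C and 5 at 4C, a ratio of CPM of 2.17 with a 95% counting interval of 0.859 to 7.02. Pgk1 had 8 and 1 UMIs and Pgam1 had 4 and 1, and the interval of both ratios included 1. Intervals and limits here cover counting error only.

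**Figure D1:**
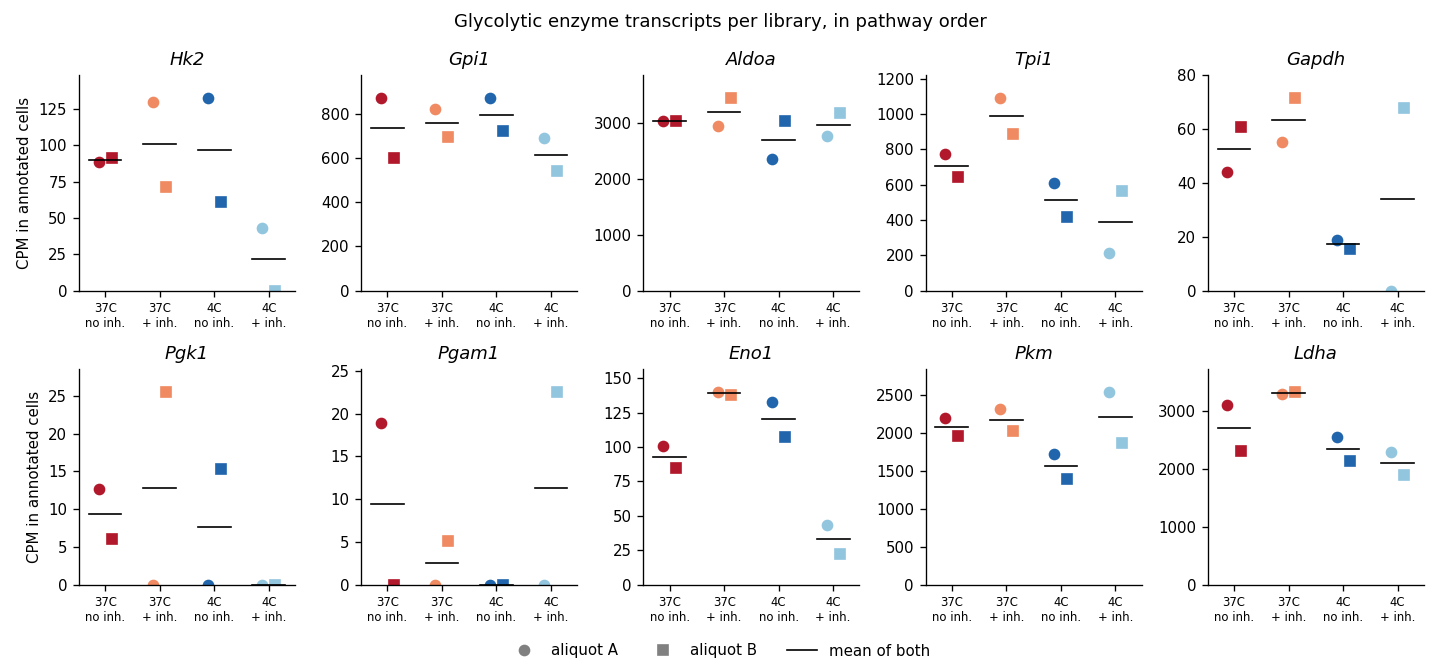
Level of each gene in each library (vertical axis, CPM in annotated cells, linear from 0 with its own range per gene), by group on the horizontal axis (inh., inhibitor). Circles and squares are aliquots A and B and the line is their mean; Tpi1 has its 4 libraries at 37C, 644 to 1090.4 CPM, above the 4 at 4C, 215 to 607 CPM, while Aldoa and Gpi1 overlap.

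Summed over the 10 genes, glycolytic enzymes took 0.879 to 1.08% of the UMIs of annotated cells at 37C and 0.790 to 0.857% at 4C, without overlap. Within tumour cells the temperatures overlapped, at 0.983 to 1.20% at 37C and 0.866 to 1.10% at 4C. They also overlapped within immune cells, at 0.651 to 0.906% and 0.424 to 0.693%. The part of the mixture of cell types in the separation over all annotated cells was not tested. Tumour cells had the largest share, 1.09% with libraries pooled (0.866 to 1.20% over 8 libraries), followed by macrophages at 0.871% (0.158 to 1.05%), T cells at 0.731% (0.477 to 0.948%) and NK cells at 0.539% (0.270 to 0.831%). Neighbours in this order overlapped over libraries. The pooled order is set mostly by 37C, which gave 137357 of the 148494 macrophage UMIs. At 4C the pooled shares were 0.947% in tumour cells, 0.638% in T cells, 0.588% in NK cells and 0.575% in macrophages, and the mean over 8 libraries was 0.709% in T cells and 0.672% in macrophages. Barcodes with under 100 UMIs, which mostly hold free RNA rather than a whole cell, carried 0.574% (0.397 to 0.716%). Over all libraries the pooled share of NK cells thus did not lie above that of the low-count barcodes, and the other types had higher pooled shares. By temperature, NK cells were at 0.506% against 0.603% in low-count barcodes at 37C, and at 0.588% against 0.506% at 4C. The part of free RNA in these levels was not tested. In macrophages at 4C the share was 0.767 and 0.811% with no inhibitor and 0.158 and 0.227% with inhibitor, from only 17 cells in all.

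**Figure D2:**
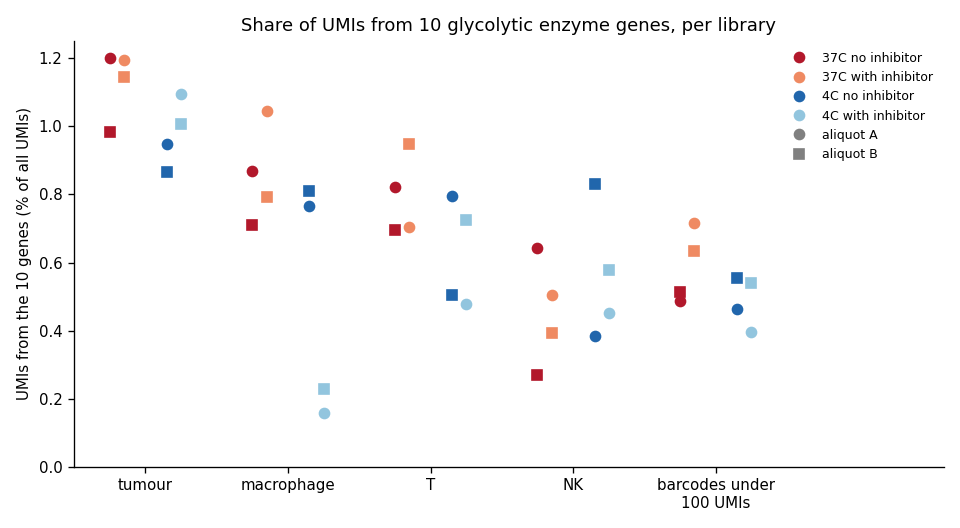
Share of all UMIs that came from the 10 genes (vertical axis, %), for each cell type and for barcodes with under 100 UMIs, 1 point per library coloured by group. Tumour cells sit between 0.866 and 1.20%, and low-count barcodes between 0.397 and 0.716%.

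Single tumour cells varied widely. The median tumour cell had 0.927% of its UMIs from the 10 genes (quartiles 0.598 and 1.35%, highest 3.23%), the median macrophage 0.802%, T cell 0.452% and NK cell 0.372%. Of 325 tumour cells, 3 had no UMI of any of the 10 genes, as did 28 of 154 T cells. Tumour cells were the deepest type, with a median of 1359 UMIs against 503.5 in T cells, so each cell was also thinned to 300 UMIs, which left out 31 T cells, 14 macrophages and 4 NK cells. Aldoa was then seen in 58.8% of tumour cells (95% exact interval 53.2 to 64.2%), 40.0% of macrophages, 35.0% of T cells and 24.2% of NK cells. Unthinned, these Aldoa shares were 90.2, 67.0, 50.6 and 54.5%. The other deeply counted enzymes differed less between tumour cells and macrophages after thinning. In tumour cells, macrophages, T cells and NK cells, Ldha was seen in 55.4, 44.2, 43.9 and 21.0%, and Pkm in 46.5, 43.2, 26.8 and 17.7%. Gpi1 was seen in 19.1, 17.9, 16.3 and 9.68%. Tpi1 was seen in 19.7, 25.3, 10.6 and 6.45%. The 95% exact intervals of tumour cells (15.5 to 24.4%) and macrophages (16.9 to 35.2%) overlapped. At 37C Tpi1 was seen in 21.3% of tumour cells and 27.2% of 81 macrophages, and at 4C in 15.1% and in 14.3% of 14 macrophages. No type that lacks glycolytic enzymes was there to set the background of such shares, and the cells of a library are not replicates.

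Tumour and immune cells of the same library were compared for the 5 genes counted deeply enough in both. This is a description without a test, because the authors named the types from the expression of these cells. Aldoa showed the largest difference, with a median log2 ratio of tumour over immune cells of 0.99 over 8 libraries (SD 0.35, range 0.52 to 1.72), a fold of 1.99. Gpi1 had a median of 0.50 (0.18 to 1.18) and Ldha of 0.58 (−0.19 to 0.77). Aldoa and Gpi1 were higher in tumour cells in 8 of 8 libraries, as were 19.9% of the 1217 genes compared, and 19.6% of genes were lower in 8 of 8. With TMM-scaled library sizes Aldoa alone remained higher in every library. Ldha was higher in 7 of 8, the exception being aliquot A at 4C with no inhibitor. Tpi1 had a median of 0.26 (5 of 8 higher) and Pkm of 0.24 (6 of 8 higher), so both lay on either side of equality. The 5 genes had a median of 0.50, beside 0.05 for all genes compared. Eno1 and Hk2 fell below the filter. Eno1 had 69 UMIs in tumour and 32 in immune cells, or 118 and 99.5 CPM, and Hk2 had 51 and 30, or 87.6 and 93.3 CPM.

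**Figure D3:**
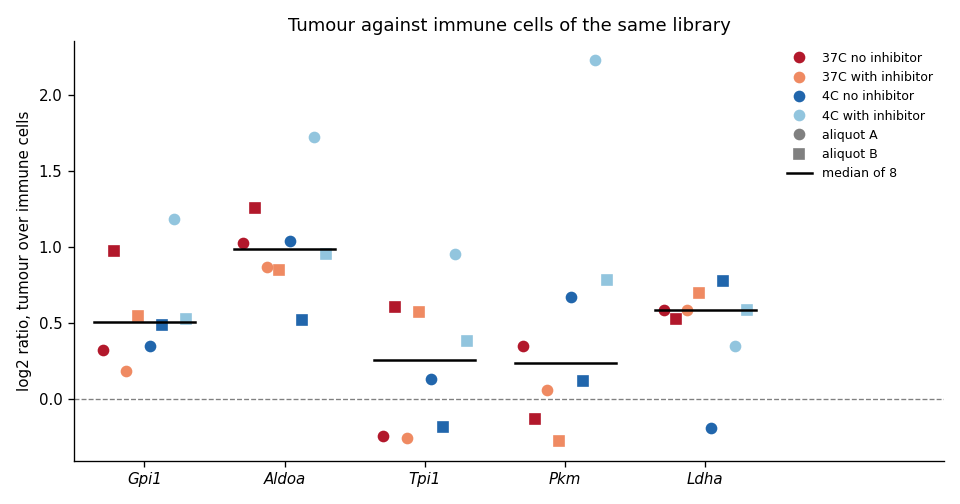
Log2 ratio of CPM in tumour over immune cells of the same library (vertical axis, 2 counts added in proportion to the library size), 1 point per library coloured by group, with the median as a line. The Aldoa points run from 0.52 to 1.72, all above 0, while Tpi1 and Pkm have points on both sides; the highest Pkm point, 2.23, is aliquot A at 4C with inhibitor.

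Resolved by type, Aldoa had the simplest order. Pooled over libraries it was at 3714 CPM in tumour cells, 1937 in T cells, 1879 in macrophages and 1758 in NK cells, and the last 3 did not differ beyond their counting intervals. Within each of the 4 groups, tumour cells exceeded T cells, macrophages and NK cells in 4 of 4. In NK cells the pooled level was 1218 CPM at 37C (95% counting interval 862 to 1671) and 2578 CPM at 4C (1931 to 3372), but single libraries overlapped, at 0 to 1604 CPM and 753 to 3975 CPM. Ldha was at 3225 CPM in tumour cells, 2397 in macrophages, 2275 in T cells and 1487 in NK cells. Macrophages and T cells did not differ beyond counting error, and tumour cells were above macrophages in 3 of 4 groups. With libraries pooled, Pkm was highest in macrophages, at 2350.3 CPM (95% counting interval 2110.1 to 2610.2). It was at 2112 CPM in tumour cells (1996 to 2233), 1780.5 in T cells and 1140 in NK cells. The intervals of macrophages and tumour cells overlapped. Tumour cells were above macrophages in 2 of 4 groups, both at 4C (log2 ratio 0.58 and 1.38, from 17 macrophages in all). In both groups at 37C tumour cells were below macrophages, at −0.16 and −0.23. Tpi1 was also highest in macrophages, at 1044 CPM (886 to 1222), against 795 in tumour cells (724 to 871), 522 in NK cells and 519 in T cells. Tumour cells were below macrophages for Tpi1 in 3 of 4 groups, with a median log2 ratio of −0.25. The order at 37C differed between aliquots of the same suspension. With no inhibitor, macrophages and tumour cells read 1038 and 709.5 CPM in aliquot A, but 569 and 726 CPM in aliquot B. With inhibitor they read 1573 and 1008 CPM in aliquot A, from 86 macrophage UMIs, but 635 and 959.6 CPM in aliquot B, from 22. Gpi1 was at 812 CPM in tumour cells, 694 in macrophages, 618 in T cells and 367 in NK cells.

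**Figure D4:**
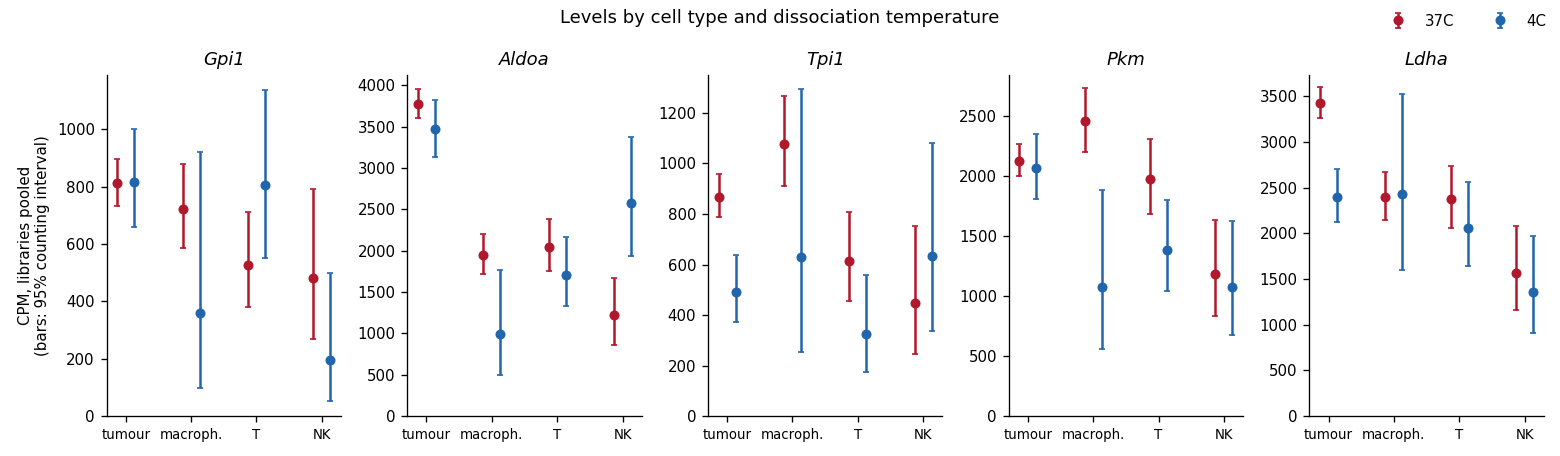
CPM with libraries pooled (vertical axis, linear from 0), by cell type and by temperature (red 37C, blue 4C), with 95% counting intervals. Aldoa stands at 3774 CPM in tumour cells at 37C against 1951 in macrophages, and the intervals of macrophages at 4C are wide because they rest on 17 cells.

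The effect of dissociation temperature was tested with edgeR's quasi-likelihood test on counts summed per library, with Benjamini-Hochberg adjustment over all genes. Over all annotated cells, 7 of the 10 genes passed the filter on low counts. Of these 7, Tpi1 alone was called at an adjusted p under 0.05, beside 3.98% of the 3391 genes tested (135). Tpi1 was higher at 37C by a log2 fold change of 0.91 ± 0.26 (SE), a fold of 1.88 with adjusted p = 0.0481, from 847 ± 189 CPM at 37C and 450.2 ± 177 CPM at 4C (SD, n = 4 libraries each). The call rests close to the threshold. It was lost without any 1 of 4 libraries (both aliquots at 37C with no inhibitor, aliquot A at 37C with inhibitor and aliquot A at 4C with inhibitor), where edgeR's adjusted p was 0.0618 to 0.134, and with aliquots summed (0.157), RLE size factors (0.0521) or thinning (0.764). DESeq2 gave an adjusted p of 0.0921.

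Ldha came next, at 0.50 ± 0.15 on the log2 scale, from 3003 ± 473 and 2213 ± 271 CPM, with adjusted p = 0.0679 in edgeR, or 0.0106 without aliquot A at 4C with no inhibitor. Hk2 differed by 1.36 ± 0.66 and Eno1 by 0.97 ± 0.48, both imprecise and with adjusted p of 0.308 and 0.321 in edgeR. Pkm differed by 0.27 ± 0.16, Aldoa by 0.19 ± 0.15 and Gpi1 by 0.17 ± 0.22, and the 95% interval of each of these 3 included 0. All 7 estimates were above 0, with a median of 0.50 beside 0.04 for all genes, except that with every sum thinned to the smallest total Gpi1, Aldoa and Pkm were at −0.54, −0.44 and −0.07. That thinning shifted the median of all genes by −0.27, and relative to the shift the 3 estimates were −0.27, −0.17 and 0.20.

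Split by inhibitor, none of the 7 was called in edgeR at 37C against 4C with no inhibitor, beside 1.06% of all genes, and none had an unadjusted p under 0.05. With inhibitor again none was called, beside 1.8% of all genes, while 4 had an unadjusted p under 0.05. The most precise of these were Ldha at 0.78 ± 0.22 and Tpi1 at 1.33 ± 0.38, with adjusted p of 0.0744 and 0.0825 in edgeR. Without aliquot A or aliquot B at 4C with no inhibitor, Tpi1 was at 1.48 and 1.47 there, and Ldha at 0.95 in both fits. Without aliquot B at 4C with inhibitor Tpi1 was at 2.56. That fit left aliquot A, with 5 Tpi1 UMIs, as the only library of its group. For Eno1 the 2 UMIs at 4C with inhibitor against 55 at 37C gave a ratio of CPM of 4.70 with a 95% counting interval of 1.24 to 39.7. For Hk2, 1 UMI against 40 gave 6.83 (1.16 to 276). DESeq2 called 0 of the 7 in each of these comparisons.

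**Figure D5:**
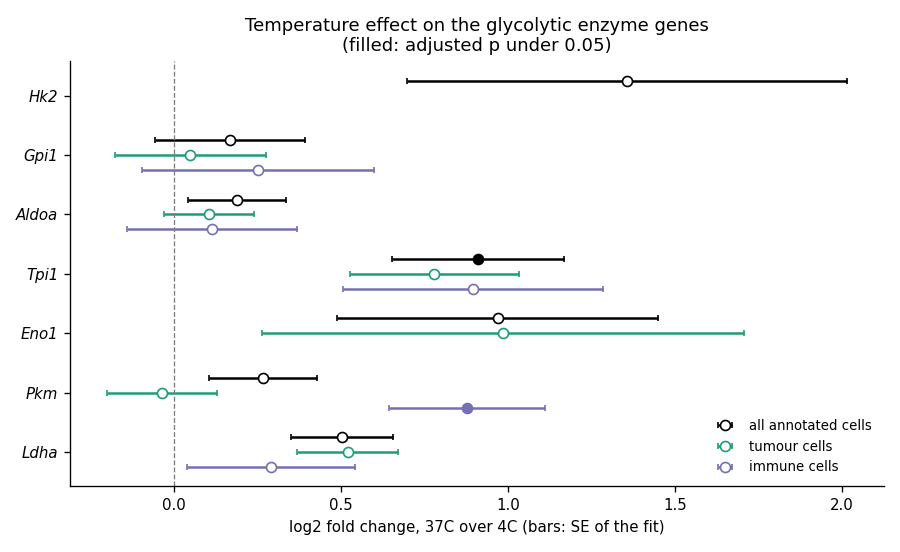
Log2 fold change of 37C over 4C with its SE (horizontal axis) for each gene that passed the filter, in all annotated cells, tumour cells and immune cells. Filled points, Tpi1 in all cells (0.91) and Pkm in immune cells (0.88), have an adjusted p under 0.05 in edgeR's quasi-likelihood test.

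Actinomycin D did not move a glycolytic enzyme past the threshold. At 37C, 0 of 7 were called, beside 1.21% of all genes, and 0 had an unadjusted p under 0.05. The estimates ran from 0.07 ± 0.29 for Gpi1 to 0.60 ± 0.39 for Eno1, and that of Ldha was 0.31 ± 0.21 (95% interval −0.09 to 0.72). At 4C, 0 of 7 were called, beside 0% of all genes. Hk2 and Eno1 had an unadjusted p under 0.05 there, from 11 against 1 UMIs and from 14 against 2, and both counting intervals of the ratio included 1. The interaction of temperature and inhibitor called 0 of 7, beside 0% of all genes, with the same 2 genes under 0.05 unadjusted. DESeq2 called none of the 7 in these 3 comparisons.

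In tumour cells alone 6 of the 10 genes passed the filter. Ldha read 3651 and 2559 CPM at 37C with no inhibitor and 3804 and 3652 CPM at 37C with inhibitor. It read 2394 and 2446 CPM at 4C with no inhibitor and 2473 and 2252 CPM at 4C with inhibitor. The 4 libraries at 37C thus lay above the 4 at 4C. The difference was 0.52 ± 0.15 on the log2 scale, a fold of 1.43, with adjusted p = 0.0585 in edgeR, just outside the threshold. It passed without any 1 of 5 libraries (each of the 4 at 4C, and aliquot B at 37C with no inhibitor), with adjusted p of 0.00486 to 0.0392 in edgeR. Tpi1 read 709.5, 726, 1008 and 959.6 CPM in the 4 libraries at 37C, and 632, 397, 267 and 637 CPM in those at 4C, in the order used above. Its groups did not overlap either, and its difference was 0.78 ± 0.25 with adjusted p = 0.0950 in edgeR. The Tpi1 difference was 1.13 without aliquot A at 4C with no inhibitor and 1.45 without aliquot B at 4C with inhibitor. The latter fit left aliquot A, with 4 Tpi1 UMIs in tumour cells, as the only library of its group. Aldoa, Gpi1 and Pkm were at 0.11 ± 0.13, 0.05 ± 0.23 and −0.03 ± 0.17, and Eno1 at 0.99 ± 0.72. None of the 6 was called for temperature, beside 1.42% of the 1756 genes tested, with 2 under 0.05 unadjusted. For the inhibitor in tumour cells, 0 of 6 were called at 37C, beside 0.911% of genes, and 0 of 6 at 4C, beside 0%. Of these, Pkm at 4C was under 0.05 unadjusted (0.65 ± 0.26, adjusted p = 0.871 in edgeR). DESeq2 called 0 of 6 in each of these 3 comparisons. Epithelial markers took 0.143 to 0.192% of tumour UMIs at 37C and 0.0865 to 0.160% at 4C, and their part in the result was not tested.

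In immune cells Pkm rose with temperature. It read 1903 and 2092 CPM at 37C with no inhibitor and 2259 and 2344 CPM at 37C with inhibitor. It read 1280.1 and 1315 CPM at 4C with no inhibitor and 727 and 1346 CPM at 4C with inhibitor. The groups did not overlap, and the difference was 0.88 ± 0.23 on the log2 scale, a fold of 1.84 with adjusted p = 0.0262 in edgeR. It was 1 call among 5 genes tested, beside 18.6% of the 883 genes (164), so the share among the enzymes was near the background. The call was lost in edgeR without any 1 of 6 libraries (adjusted p 0.0546 to 0.0915), and held without aliquot B at 4C with no inhibitor and without aliquot B at 4C with inhibitor. Macrophages, the immune type with the most Pkm at 37C though not at 4C, gave 38.0 to 75.9% of the immune UMIs at 37C and 6.86 to 25.9% at 4C, and the part of that mixture in the difference was not tested. Within single types, Pkm was at 2453 CPM in macrophages at 37C (95% counting interval 2198 to 2729.9) against 1077 at 4C (557 to 1882), at 1975 in T cells (1681 to 2304) against 1382 (1041 to 1799.5), and at 1186 in NK cells (835 to 1634) against 1070.0 (671 to 1620.0). The pooled level was thus lower at 4C within macrophages beyond counting error, while the intervals overlapped in T cells and in NK cells. The macrophage value at 4C rests on only 17 cells. Macrophage markers took 0.794 to 2.58% of their UMIs at 4C and 1.67 to 3.25% at 37C. Neutrophil markers reached 4.35% of macrophage UMIs in 1 library at 4C, so a change within macrophages was not established. Tpi1 had a difference of 0.90 ± 0.39 in immune cells (adjusted p = 0.129 in edgeR), close to that in tumour cells.

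The temperature effect in tumour cells was set against that in immune cells within libraries. No enzyme of the 5 was called, beside 2.63% of the 1217 genes, and DESeq2 also called 0. Pkm had the largest difference, −0.87 ± 0.29 (adjusted p = 0.0983 in edgeR, or 0.0452 without aliquot B at 4C with no inhibitor), the smaller effect being in tumour cells. The differences of Tpi1, Aldoa, Gpi1 and Ldha were −0.10 ± 0.44, −0.02 ± 0.26, −0.13 ± 0.41 and 0.18 ± 0.26.

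Other steps of the pathway did not pass the test in any comparison. Of 21 further glycolysis genes (glucose and lactate transporters, other isozymes, pyruvate dehydrogenase), 20 were in the tables and 7 were tested over all annotated cells, with 0 called and a median temperature difference of −0.04 on the log2 scale. Among these, the glucose transporter Slc2a1 was at 0.75 ± 0.35 and phosphofructokinase, which commits sugar to glycolysis, at −0.44 ± 0.32 for Pfkl and −0.04 ± 0.32 for Pfkp. The hexokinase Hk1 was at −0.30 ± 0.41. Pfkl was higher in tumour than in immune cells in 8 of 8 libraries (median log2 ratio 0.98) and Pfkp in 4 of 8 (0.02). The lactate exporter Slc16a3, below the filter, had 6 UMIs in tumour cells and 77 in immune cells, or 10.3 and 239 CPM, a ratio of immune over tumour of 23.2 with a 95% counting interval of 10.2 to 65.3. Ldhb, the other lactate dehydrogenase subunit, had 30 and 4 UMIs.

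Neighbouring pathways gave no called gene over all cells either. For the pentose phosphate pathway, which branches from glucose 6-phosphate, 0 of 5 tested genes were called for temperature (median 0.00), and for the citrate cycle 0 of 14 (median 0.19). Of other HIF targets 0 of 11 were called (median −0.17), and 4 of the 11 estimates were above 0. In immune cells Hif1a, the oxygen-regulated subunit of HIF-1 and a member of that list, was called, at 1.04 ± 0.29 with adjusted p = 0.0356 in edgeR, from 910.5 ± 179 CPM at 37C and 442 ± 122 CPM at 4C (SD, n = 4 each). This call too stood beside 18.6% of genes called and beside the change in the macrophage share of immune UMIs given above, whose part was not tested. It was lost in DESeq2 (adjusted p = 0.116) and, in edgeR, without any 1 of 6 libraries (both aliquots at 37C with no inhibitor, aliquot B at 37C with inhibitor, aliquot B at 4C with no inhibitor and both at 4C with inhibitor), at 0.0506 to 0.0908. Hif1a was the 1 list gene outside the 10 enzymes called in any of the comparisons. Hif1a was lower in tumour than in immune cells in 8 of 8 libraries (median −1.84), opposite to Mif, a cytokine and HIF target, which was higher in 8 of 8 (median 1.21).

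Across the 16 sums (tumour and immune cells of 8 libraries), log2 CPM of the 5 deeply counted enzymes correlated with each other at Pearson r of 0.399 to 0.723, highest for Gpi1 with Ldha and lowest for Aldoa with Tpi1. The sums share libraries and differ in depth, so these values are a description. Of 1072 genes whose log2 CPM averaged 7 or more, the 5 most like the summed enzymes were Hint1 (r = 0.942), Mif (0.938), the mitochondrial channel Vdac1 (0.911), the annexin Anxa1 (0.911) and the tetraspanin Cd81 (0.908). Each of these 5 was higher in tumour than in immune cells in 8 of 8 libraries. The summed enzymes were themselves higher in tumour cells of every library, so the ranking favours genes with that pattern. Among the other genes of the pathway lists, r was highest for Idh2 (0.861), Ndrg1 (0.854), Mdh2 (0.849) and Bnip3 (0.826). It was below 0 for Pfkp (−0.352), Taldo1 (−0.346) and Hif1a (−0.504). The rest lay between 0.077 and 0.592, with Pfkl at 0.523.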

How the data were processed

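RNA was measured in single cells of 8 ddSEQ libraries. The authors deposited raw UMI counts per gene and barcode for each library, a table of natural log expression values (the ln of 1 plus counts per 10000, checked on the values within a tolerance of 0.001) for 654 cells, and a cell annotation. Per the submitters' processing notes, the build was GRCm38 and the tools included Seurat, featureCounts 1.6.0, STAR 2.7.1a, SAMtools and UMI-tools; no source used here gives their settings, the cell filters or the handling of doublets. Of 17580 identifiers, 17520 received a symbol from GENCODE vM21, 12505 with the same version.

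Counts of annotated cells were summed per library and type, filtered with filterByExpr, scaled by TMM and tested with edgeR 4.0.16 under R 4.3.3 (glmQLFit, glmQLFTest, two-sided, Benjamini-Hochberg over all genes, calls at adjusted p under 0.05). Group terms were the 4 conditions; the tumour against immune difference had library as a block. The procedure was tested on simulated data. Tumour over immune ratios had 2 prior counts scaled to library size. Counting intervals are exact, at 95%. Copies were found with BLAST 2.17.0, and promoter windows are from RefSeq (GRCm38.p6). Other tools were DESeq2 1.42.0, Python 3.11.15, NumPy 2.4.6, SciPy 1.17.1 and pandas 2.3.3.

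The 10 enzymes and all lists (other glycolysis, pentose phosphate, other HIF targets, citrate cycle and markers of 10 cell types) were chosen with earlier results of these data known. Named genes were the 10 enzymes, list genes called in any comparison, Slc2a1, Hk1, Pfkl, Pfkp, Ldhb, Slc16a3 and Mif where measured, and the 5 genes most like the summed enzymes over 16 sums. Idh2, Ndrg1, Mdh2, Bnip3 and Taldo1 were named afterwards, for their correlation with the summed enzymes. Alternatives were RLE size factors, DESeq2, no filter, thinning to the smallest total, each library left out, the replicate letter as a block, all barcodes and summed aliquots. Within a group, aliquots differed by more than counting noise. Chi-square per degree of freedom was 1.52 to 2.67 over all genes and 1.99 to 3.95 over the enzymes included. Each aliquot was kept as a sample so that the tests include this spread, which the counting intervals do not cover. Aliquots of the same suspension are technical, so this does not make them independent replicates of a condition.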

Additional observations from a re-analysis of the deposited data

Results flagged for a closer look

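The log2 ratio of Pkm in tumour over immune cells was 2.23 in aliquot A at 4C with inhibitor, far above the other 7 libraries, which reached at most 0.78. That library had 53 Pkm UMIs in tumour cells and 6 in immune cells. The log2 ratio of Ldha was −0.19 in aliquot A at 4C with no inhibitor, below the other 7, which were between 0.35 and 0.77. Chance alone marks about 1 in 20 groups of samples in this way.

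Barcodes that the authors did not annotate but that held over 5000 UMIs carried 0.967% of their UMIs from the 10 enzymes at 37C with libraries pooled (8130 of 841059), close to the 1.02% of annotated cells at 37C. They are outside the comparisons above.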

How the results depend on the processing

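No result changed direction past the threshold under any alternative. Of single-gene values, 1511 stayed as reported, 166 moved, 37 passed the threshold newly and 22 no longer passed it. Depth was one limit: the smallest library at 4C held 23212 UMIs of annotated cells, and thinning to the smallest total left 462 genes in the all-cell fit. Causes of the changes below were not tested, apart from fewer counts under thinning and fewer samples where libraries were left out or summed.

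For temperature over all annotated cells, 1 enzyme and 135 genes were called. The enzymes called became 0 with RLE size factors (Tpi1 adjusted p = 0.0521), 0 with DESeq2 (0.0921), 0 with thinning (0.764), 0 with aliquots summed, 2 without the filter and 6 with all barcodes, and 0 to 2 when libraries were left out in turn. All genes called became 60 with DESeq2, 293 without the filter, 0 with thinning, 1290 with all barcodes and 89 with aliquots summed, and 80 to 198 with libraries left out. With no inhibitor, 36 genes became 22 with DESeq2, 85 without the filter, 0 with thinning, 349 with all barcodes and 23 to 58 with libraries left out. With inhibitor, 0 enzymes became 2 without the filter, 3 with all barcodes and 0 to 2 with libraries left out, and 61 genes became 33 with DESeq2, 135 without the filter, 0 with thinning, 795 with all barcodes and 10 to 165 with libraries left out.

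For the inhibitor at 37C, 41 genes became 8 with DESeq2, 75 without the filter, 0 with thinning, 256 with all barcodes and 15 to 116 with libraries left out. At 4C, 0 genes became 11 without the filter, 2 with all barcodes and 0 to 12 with libraries left out. For the interaction, 0 became 14, 87 and 0 to 17 under the same 3 settings.

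For temperature in tumour cells, 0 enzymes became 2 without the filter and 0 to 2 with libraries left out, and 25 genes became 7 with DESeq2, 120 without the filter, 0 with thinning and 12 to 63 with libraries left out. For the inhibitor in tumour cells, 16 genes at 37C became 1 with DESeq2, 0 with thinning and 4 to 20 with libraries left out, and 0 genes at 4C became 0 to 1. For temperature in immune cells, 1 enzyme became 2 without the filter, 0 with thinning (Pkm adjusted p = 0.655) and 0 to 1 with libraries left out, and 164 genes became 84 with DESeq2, 1 with thinning and 77 to 135 with libraries left out. For the difference between tumour and immune cells, 0 enzymes became 0 to 1 with libraries left out, and 32 genes became 16 without the filter, 1 with thinning and 17 to 35 with libraries left out. The 2 enzymes higher in tumour cells in every library became 1 with TMM-scaled sizes, 4 against T cells and 4 against NK cells per group, and 2 to 3 with libraries left out.

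Dropping the filter shifted the median of all genes by 0.29 (log2) over all cells, 0.44 in tumour and 0.54 in immune cells. Relative to that shift the differences were 0.91 for Tpi1 and 0.52 for Ldha over all cells, 0.53 for Ldha in tumour cells and 0.87 for Pkm in immune cells.

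The letters A and B were not taken to pair samples across groups, because deviations of aliquots with the same letter correlated at −0.029 to 0.255 over pairs of groups and not above 0.1 in every pair. With the replicate block, enzymes called were 2 for temperature over all cells (Tpi1 adjusted p = 0.0285, Ldha 0.0221), 1 with inhibitor and 1 in tumour cells (Ldha 0.0481), and the genes called were 56 with no inhibitor, 5 for the inhibitor at 4C and 2 for the interaction.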

Other observations

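Some isozymes and transporters beside the 10 enzymes had unequal counts in tumour and immune cells. The genes in this paragraph were chosen after their values were seen, the values are pooled over 8 libraries, and no test was made because the types were named from these cells. The muscle phosphofructokinase Pfkm had 34 UMIs in tumour cells, or 58.4 CPM, and 0 in 321579 UMIs of immune cells. Against a floor of 3 counts over the immune group, the ratio of tumour over immune cells was 6.26. The lower 95% counting limit of the ratio was 4.82. Aldolase C (Aldoc) had 35 UMIs in tumour and 4 in immune cells, a ratio of CPM of 4.83 with a 95% counting interval of 1.73 to 18.7. Enolase 2 (Eno2) had 24 and 3, a ratio of 4.42 (1.34 to 22.9), and the lactate transporter Slc16a1 51 and 11, a ratio of 2.56 (1.32 to 5.45). In the other direction, hexokinase 3 (Hk3) had 4 UMIs in tumour and 24 in immune cells, a ratio of immune over tumour of 10.9 (3.73 to 43.1). For Hk1 and Pfkp the ratios of tumour over immune cells were 0.708 (0.456 to 1.11) and 0.773 (0.569 to 1.05), and both intervals included 1.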
